A study of Mus musculus with 6 samples.

Results

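The BCL2 family decides whether a cell keeps or breaks its outer mitochondrial membrane, and 10 of its genes were followed here in mouse bone marrow B220+ cells, the fraction of marrow that carries the B220 form of CD45. The members were the rows of the deposited table whose symbol was Bcl2, Bcl2l1, Mcl1, Bax, Bak1, Bcl2l11, Bbc3, Pmaip1, Bmf or Bid, which gave 10 rows of the 27761 in the table, 1 row for each symbol. Messenger RNA was sequenced in 3 libraries of genotype WT and 3 of genotype PELI2 knockout, which the titles call PELI2-CKO. The labels give no strain, age, treatment or driver of the deletion. Whether the replicates came from different mice is not stated in them, and p-values here reflect the scatter of these 6 libraries alone, which may be technical.

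The family has 3 kinds of protein. Pro-survival proteins (BCL2, BCL-XL and MCL1) bind and restrain the others. The effectors BAX and BAK, once activated, make pores in the outer membrane through which cytochrome c leaves and caspases are switched on. BH3-only proteins carry a single short helix that fits the groove of the pro-survival proteins, and relay signals such as loss of cytokine, DNA damage or a self-reactive antigen receptor. In the B lineage the need for each guardian shifts with the stage, as pro-B cells depend on interleukin-7, pre-B cells test their receptor and immature cells that bind self are removed largely through BIM.

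Values are FPKM, which are scaled by transcript length, so levels of different genes can be compared within a library. Read totals worked out from the low values were 16600000 to 18000000 per library, so that 1 FPKM on a transcript of 1 kb is 16.6 to 18 reads. Each of the 10 members passed the expression filter (3 or more libraries with at least 1 FPKM). Differences are those of log2(FPKM + 1), libraries labelled PELI2 knockout minus WT, with the standard error (SE) from a limma model over all 12953 tested genes, and adjusted p-values are Benjamini-Hochberg values over all of them. Peli2 itself did not mark the groups: it stood at 2.03, 2.54 and 1.99 FPKM in WT and at 3.07, 2.70 and 2.47 FPKM in the knockout-labelled libraries, so the directions given below follow the labels, and no loss of Peli2 message was measured. A value per gene does not show whether single exons are missing. These libraries are called knockout-labelled for that reason. Peli1 stood at 17.4 ± 0.58 and 14.8 ± 0.57 FPKM, and Peli3 at 0.102 ± 0.0098 and 0.0848 ± 0.0205 FPKM (mean ± SD, n = 3 per group, WT first).

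Markers of the B lineage were present throughout, with Cd79a at 636 ± 76.4 and 503 ± 13.9 FPKM (WT, then knockout-labelled). Ptprc stood at 42.5 ± 2.51 and 42.8 ± 1.22 FPKM. It encodes every form of CD45, not B220 alone, so its level does not single out B-lineage RNA. RNA of other marrow cells was present too, and the groups differed in B-lineage markers and in those of other cells. The summed level of 14 B-lineage markers ran from 1998 to 2384 FPKM in WT and from 1628 to 1707 FPKM in the knockout-labelled libraries. Of the 14, 13 were lower in mean, all but Ptprc. All 15 granulocyte markers had a higher mean there, their sum running from 7827 to 10837 FPKM in WT and from 12270 to 14483 FPKM in the other group. The 11 erythroid markers summed to 9293 to 13515 FPKM and 14082 to 17937 FPKM, and the 10 monocyte and macrophage markers to 727 to 1037 FPKM and 1064 to 1360 FPKM. Hba-a1 and Hbb-bs, the largest erythroid terms, each overlapped between the groups. Groups were apart for 4 of the 11 erythroid markers, on the higher side, beside 11.5% of all tested genes. All of these erythroid and monocyte and macrophage markers had a higher mean in the knockout-labelled libraries. Of 8 plasmacytoid dendritic cell markers 7 were higher in mean there. Groups were apart on that side for 5 (Siglech, Bst2, Ccr9, Irf8 and Klk1), beside 11.5% of all tested genes. Their sums overlapped, at 969.5 to 1084 and 1016 to 1145 FPKM. Spib, the largest term, had a lower mean there, 361 ± 18.3 against 454 ± 86.9 FPKM. Its groups were apart on the lower side, as for 14.3% of all tested genes. Sums for 7 plasma cell markers, 4 of them higher in mean, overlapped at 652 to 717 and 658 to 845 FPKM. The 10 T and NK cell markers summed to 83.6 to 103.8 and 104.3 to 130 FPKM, narrowly without overlap, and of 9 tested 7 were higher in mean. Only Cd4 and Nkg7 had groups apart, both on the higher side, beside 11.5% of all tested genes. Their log2 differences were 0.46 and 0.59, beside a median of 0.057 over the 9. Cd3d and Ncr1 had a lower mean, so the sums do not show a shift shared by the list. No marker of these lists was at 0 in any library. WT replicate 1 held the highest B-lineage sum and the lowest granulocyte, erythroid and monocyte sums. In bulk RNA fewer cells of a type and less RNA per cell cannot be told apart, and the part of this shift in the values below was not tested.

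By level the members spanned a wide range whose ends kept their order in each of the 6 libraries. Mcl1 stood highest in every library, at 223 ± 6.96 FPKM over all 6 (mean ± SD), above 98.7% of tested genes. Bax, Bcl2l1, Pmaip1, Bmf, Bak1 and Bbc3 shared the middle, with means over the 6 libraries of 29.9, 29.2, 27.7, 27.0, 23.9 and 23.2 FPKM. Their SDs over libraries ran from 0.967 FPKM for Bak1 to 5.73 FPKM for Bmf, and neighbours in that order were not separated beyond their spread. Below them, in the same order in every library, came Bid at 11.1 ± 0.89 FPKM, Bcl2l11 at 6.83 ± 0.37 FPKM and Bcl2 at 4.40 ± 0.59 FPKM, the last above only 33.9% of tested genes. Mcl1 messages made up 84.9% to 88.4% of the summed FPKM of the 3 pro-survival members, with overlapping groups.

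**Figure D1:**
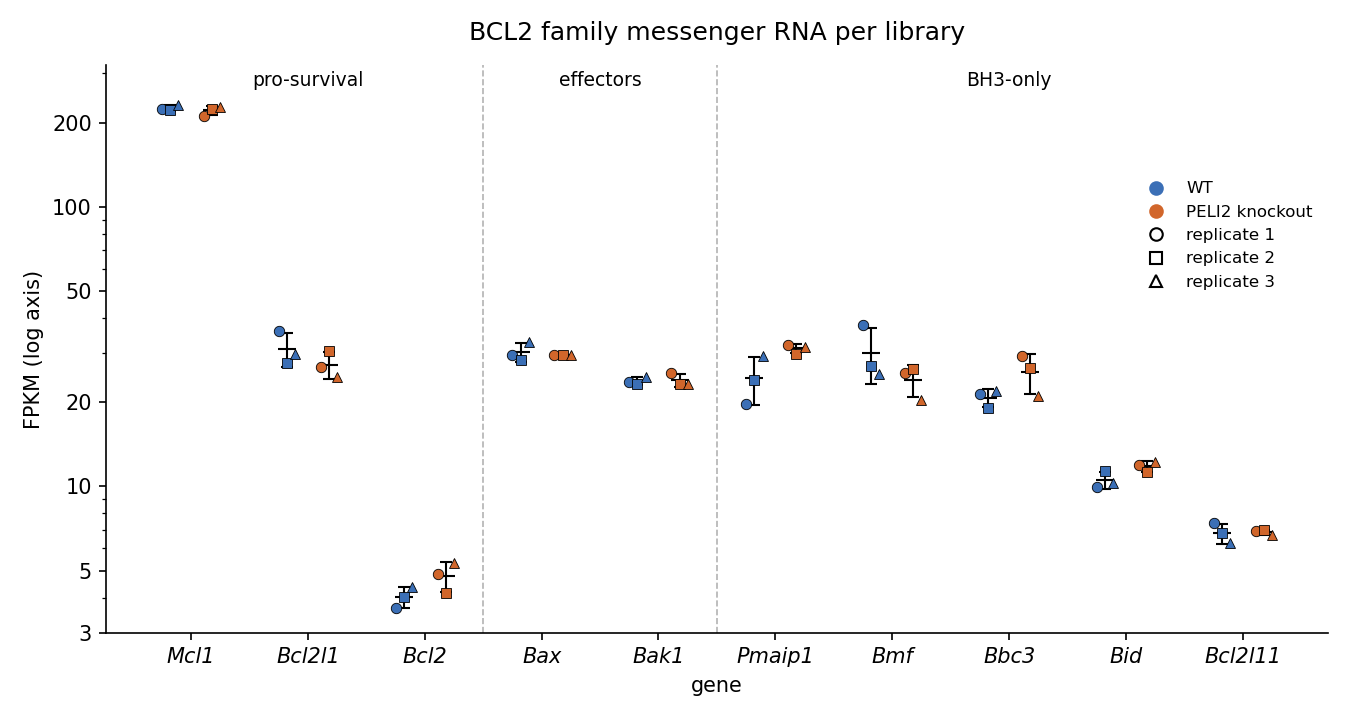
FPKM of the 10 members on a log axis, 1 point per library (blue WT, orange PELI2 knockout, shapes for replicates 1 to 3), with bars for the mean ± SD of 3 libraries. Mcl1 lies above 200 FPKM and Bcl2 below 6 FPKM in all 6 libraries, and the groups are apart for Pmaip1 alone.

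None of the 10 members passed the test between the groups (limma, adjusted p under 0.05), where 0.0232% of all tested genes did, 3 of 12953. At an unadjusted p under 0.05 there was 1 member, Pmaip1, against 18.1% of all tested genes (limma), 9.20% on the higher and 8.88% on the lower side. Groups did not overlap for 1 member, again Pmaip1, while they did not overlap for 25.8% of all tested genes, 11.5% with the knockout-labelled group higher and 14.3% with it lower. Of the 10 members 6 had a higher mean in the knockout-labelled libraries and 4 a lower one, where 46.4% of all tested genes had a higher mean. The members' median log2 difference was 0.0099, beside -0.01 over all tested genes. With each library scaled to 1 shared total the number of higher members was 4, and the median over all tested genes was -0.09. The share of all tested genes with a higher mean was not worked out under that scaling. On the deposited values, the shares of members at an unadjusted p under 0.05 (limma) and with groups apart both lie under those over all genes.

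Among the pro-survival genes, Mcl1 had the smallest difference in mean relative to its level. Its product is a short-lived guardian on which early B cells and granulocytes are known to depend. Mcl1 (ENSMUSG00000038612, GRCm38 chromosome 3, 95658788 to 95663176, plus strand) stood at 223, 222 and 231 FPKM in WT replicates 1 to 3 and at 211, 224 and 228 FPKM in the knockout-labelled libraries. The lowest library was PELI2 knockout replicate 1 and the highest WT replicate 3, and the groups overlap. On the log2 scale the difference was -0.03 (SE 0.057, 95% interval -0.16 to 0.11, limma adjusted p = 0.816). It was -0.10 with each library scaled to 1 shared total, where the median of all tested genes was -0.09. With quantile normalization it was -0.09, beside a median of -0.02, and it turned to 0.0035 without PELI2 knockout replicate 1.

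Bcl2l1 encodes BCL-XL, which guards pre-B cells and maturing red cells. The gene (ENSMUSG00000007659, chromosome 2, 152780668 to 152831728, minus strand) stood at 35.96, 27.6 and 29.6 FPKM in WT and at 26.6, 30.5 and 24.6 FPKM in the knockout-labelled libraries. WT replicate 1 was the highest of the 6 and the others overlap. The log2 difference was -0.18 (SE 0.12, 95% interval -0.46 to 0.10, limma adjusted p = 0.451). Over single libraries left out it ran from -0.26, without PELI2 knockout replicate 2, to -0.07, without WT replicate 1. The B-lineage and erythroid marker sums, both of cells known to use BCL-XL, moved in opposite directions between the groups.

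Bcl2 is the founding member and is known to be low in pre-B cells and higher in pro-B and mature B cells and in T cells. It (ENSMUSG00000057329, chromosome 1, 106538178 to 106714274, minus strand) stood at 3.69, 4.03 and 4.36 FPKM in WT and at 4.85, 4.15 and 5.32 FPKM in the knockout-labelled libraries. Replicate 2 of the latter lies inside the WT range, and the log2 difference was 0.20 (SE 0.095, 95% interval -0.03 to 0.42, limma adjusted p = 0.329). With single libraries left out it ran from 0.13, without PELI2 knockout replicate 3, to 0.28, without PELI2 knockout replicate 2. The annotation has an antisense gene, D630008O14Rik, whose span overlaps that of Bcl2. Whether their exons overlap was not checked, and as strand use is not stated, reads of any shared stretch cannot be told apart.

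The effectors did not separate the groups. Bax (ENSMUSG00000003873, chromosome 7, 45461697 to 45466898, minus strand) stood at 29.5, 28.4 and 32.9 FPKM in WT and at 29.5, 29.6 and 29.4 FPKM in the knockout-labelled libraries. The 3 values of the latter group lie within the WT range, and the log2 difference was -0.03 (SE 0.061, 95% interval -0.18 to 0.12, limma adjusted p = 0.812). It was -0.11 with each library scaled to 1 shared total, where the median of all tested genes was -0.09. Bak1 (ENSMUSG00000057789, chromosome 17, 27019810 to 27029009, minus strand) stood at 23.6, 23.1 and 24.7 FPKM in WT and at 25.5, 23.2 and 23.2 FPKM in the other group. Its log2 difference was 0.0086 (SE 0.055, 95% interval -0.12 to 0.14, limma adjusted p = 0.947). Both signs turn when single libraries are left out, and that of Bak1 also turns with each library scaled to 1 shared total. Bak1 overlaps Ggnbp1 on the opposite strand and Bax overlaps the gene model Gm45808 on its own strand.

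Of the BH3-only genes, 4 of 5 had a higher mean in the knockout-labelled libraries or 3 of 5 with each library scaled to 1 shared total, and 0 of 5 passed the test (limma, 1 at an unadjusted p under 0.05). Several are transcribed in answer to stress: FOXO factors, which act when growth factor signalling falls, are known activators of Bcl2l11 and Bbc3, and p53 of Bbc3, Pmaip1 and Bax. RefSeq start sites on GRCm38.p6 were found for 9 of the 10 members, all but Pmaip1, in 16 windows of 250 bases before a start. The FOXO motif, TGTTTAC on either strand, was in 2 of the 16 windows, 1 each of Bcl2l11 and Bbc3, and in 3.17% of all 32851 windows. The p53 decamer consensus was in 2 of the 16, 1 each of Bax and Bmf, and in 7.13% of all windows, while the STAT motif TTCNNNGAA was in none of the members' windows and in 7.02% of all. The E-box CAGCTG was in 3 of the 16, all of Bmf, and in 13% of all. Windows of 1 gene are not independent. The other 3 consensus motifs read the same on both strands, and no matches of different motifs overlapped. A match is a run of letters, not a binding site. The windows with a FOXO match are shown because Foxo1 is among the regulators described below, and that of Bax beside them for its p53 decamer. They run 5′ to 3′ on the strand of the gene up to the base before the start, with the motif in capitals: Bcl2l11 at chr2:128125788-128126037 (plus), Bbc3 at chr7:16310011-16310260 (plus), before the second of its 3 starts and in an intron of the longer Bbc3 transcripts of GENCODE M21, and Bax at chr7:45466899-45467148 (minus).
Bcl2l11: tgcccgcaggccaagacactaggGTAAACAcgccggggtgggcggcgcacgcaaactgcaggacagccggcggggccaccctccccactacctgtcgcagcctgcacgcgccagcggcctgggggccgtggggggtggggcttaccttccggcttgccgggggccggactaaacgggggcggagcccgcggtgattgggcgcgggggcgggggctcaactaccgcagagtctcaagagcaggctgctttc
Bbc3: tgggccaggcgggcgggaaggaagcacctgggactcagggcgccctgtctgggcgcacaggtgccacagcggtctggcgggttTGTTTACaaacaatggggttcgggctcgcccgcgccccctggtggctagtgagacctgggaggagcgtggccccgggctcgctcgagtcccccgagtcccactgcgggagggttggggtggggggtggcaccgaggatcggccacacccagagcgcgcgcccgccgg
Bax: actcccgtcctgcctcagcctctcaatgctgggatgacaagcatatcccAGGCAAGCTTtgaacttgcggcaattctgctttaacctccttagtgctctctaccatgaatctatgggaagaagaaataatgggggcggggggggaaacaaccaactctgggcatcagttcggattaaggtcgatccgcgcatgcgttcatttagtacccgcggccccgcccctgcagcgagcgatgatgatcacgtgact
The match begins 227 bases before the start of Bcl2l11, 167 before that of Bbc3 and 201 before that of Bax.

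Bcl2l11 encodes BIM, which binds all the pro-survival proteins and sets the death of self-reactive and cytokine-starved B cells. The gene (ENSMUSG00000027381, chromosome 2, 128126038 to 128162547, plus strand) stood at 7.37, 6.79 and 6.25 FPKM in WT and at 6.93, 6.95 and 6.67 FPKM in the knockout-labelled libraries. The latter 3 lie inside the WT range, with a log2 difference of 0.01 (SE 0.066, 95% interval -0.15 to 0.17, limma adjusted p = 0.943). It turned to -0.06 with each library scaled to 1 shared total, where the median of all tested genes was -0.09. FPKM per gene does not separate the long and short forms of BIM, which differ in potency.

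Pmaip1 encodes NOXA, which binds mainly MCL1 and speeds its breakdown. The gene (ENSMUSG00000024521, chromosome 18, 66458604 to 66465550, plus strand) stood at 19.7, 24.0 and 29.3 FPKM in WT and at 32.0, 29.8 and 31.6 FPKM in the knockout-labelled libraries. The latter 3 were all higher than the WT libraries, by 0.51 FPKM at the nearest pair, and the WT libraries were spread over 9.54 FPKM. The log2 difference was 0.36 (SE 0.13, 95% interval 0.05 to 0.67, limma adjusted p = 0.236, rank 1642 of 12953 by p). It was 0.22 without WT replicate 1, the lowest library, and 0.50 without WT replicate 3, the highest of WT. The B-lineage marker sum was highest in WT replicate 1, and its part in the Pmaip1 value was not tested.

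Bbc3 encodes PUMA, which also binds all the pro-survival proteins. The gene (ENSMUSG00000002083, chromosome 7, 16308393 to 16318205, plus strand) stood at 21.4, 19.1 and 21.9 FPKM in WT and at 29.2, 26.5 and 21.0 FPKM in the knockout-labelled libraries. Replicates 1 and 2 of the latter lie above every WT library and replicate 3 within the WT range, for a log2 difference of 0.28 (SE 0.12, 95% interval -0.02 to 0.57, limma adjusted p = 0.293). It ran from 0.18, without PELI2 knockout replicate 1, to 0.41, without PELI2 knockout replicate 3.

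Bmf encodes a BH3-only protein held by a dynein light chain of the myosin V motor. The gene (ENSMUSG00000040093, chromosome 2, 118528757 to 118549687, minus strand) stood at 37.7, 26.9 and 25.3 FPKM in WT and at 25.4, 26.2 and 20.4 FPKM in the knockout-labelled libraries. WT replicate 1 stood far above the other 5 libraries, which overlap. The log2 difference was -0.29 (SE 0.16, 95% interval -0.69 to 0.10, limma adjusted p = 0.391). It ran from -0.40, without WT replicate 3, to -0.12, without WT replicate 1. Bmf was the only BH3-only member with a lower mean in the knockout-labelled libraries on the deposited values, joined by Bcl2l11 on a shared total.

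Bid encodes the protein that caspase-8 cleaves to carry death receptor signals to mitochondria. The gene (ENSMUSG00000004446, chromosome 6, 120891930 to 120916853, minus strand) stood at 9.95, 11.3 and 10.3 FPKM in WT and at 11.9, 11.2 and 12.2 FPKM in the knockout-labelled libraries. The groups overlap through WT replicate 2 and PELI2 knockout replicate 2, and the log2 difference was 0.15 (SE 0.063, 95% interval -0.00098 to 0.30, limma adjusted p = 0.278). With each library scaled to 1 shared total it was 0.09, where the median of all tested genes was -0.09. Bid overlaps the family member Bcl2l13 on the opposite strand.

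**Figure D2:**
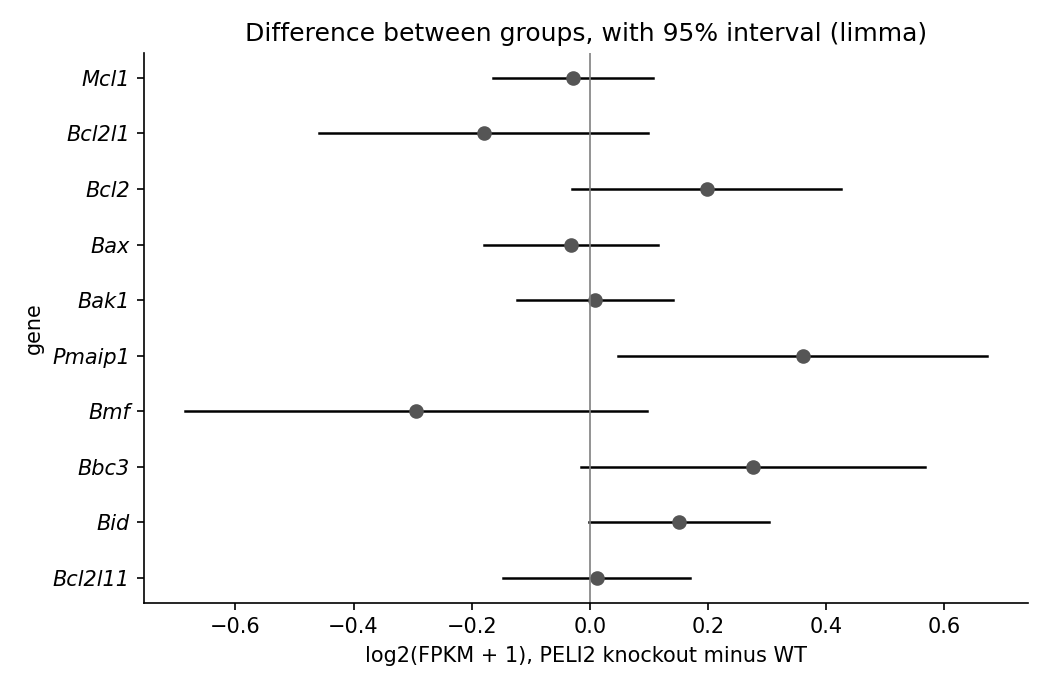
Difference in log2(FPKM + 1) between the groups, PELI2 knockout minus WT, for each member, with points for the limma estimate and lines for its 95% interval (3 libraries per group). The intervals of 9 members include 0, and that of Pmaip1 runs from 0.05 to 0.67 before any adjustment over genes.

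The mix of BH3-only messages was read as the share of each gene in their sum. The 5 genes summed to 92.4 ± 4.08 FPKM in WT and 99.3 ± 6.85 FPKM in the knockout-labelled libraries (mean ± SD, n = 3), with overlapping groups. Bmf made up 39.2%, 30.5% and 27.2% of that sum in WT and 24.1%, 26.1% and 22.2% in the other group, so that its share was lower in each library labelled PELI2 knockout. The share of Pmaip1 was 20.5%, 27.2% and 31.5% in WT and 30.4%, 29.6% and 34.4% in the other group, with an overlap. The share of Bbc3 was 22.5% ± 0.97 and 25.6% ± 2.52, that of Bid 11.4% ± 1.30 and 11.9% ± 1.22, and that of Bcl2l11 7.37% ± 0.56 and 6.91% ± 0.34. Shares of a sum move together by construction, and no test was made on them.

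Ratios between members within a library are free of any scaling of that library, and are given as values with no test. The summed FPKM of the 3 pro-survival members over that of the 7 pro-death members was 1.76, 1.81 and 1.76 in WT and 1.51, 1.68 and 1.78 in the knockout-labelled libraries. WT was narrow, 1 knockout library lay within it and 2 lay below. With Mcl1 left out of the sum the ratio was 0.239 ± 0.023 in WT and 0.21 ± 0.015 in the other group (mean ± SD, n = 3), with 0.226 in PELI2 knockout replicate 2, a value that also occurred in WT. Bcl2l11 over Bcl2 was 2.0, 1.69 and 1.43 in WT and 1.43, 1.68 and 1.255 in the knockout-labelled libraries. Bax over Bcl2 was 8.01, 7.04 and 7.53 in WT and 6.08, 7.14 and 5.53 in the other group. Both ratios were lower in mean there, with overlap. Bcl2l11 over Mcl1 was 0.0302 ± 0.0030 and 0.0311 ± 0.0018. Within the pro-survival members, Bcl2l1 over Bcl2 was 9.76, 6.86 and 6.79 in WT and 5.49, 7.36 and 4.62 in the other group, where replicate 2 lay inside the WT range. These are ratios of messages, and protein levels were not measured.

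**Figure D3:**
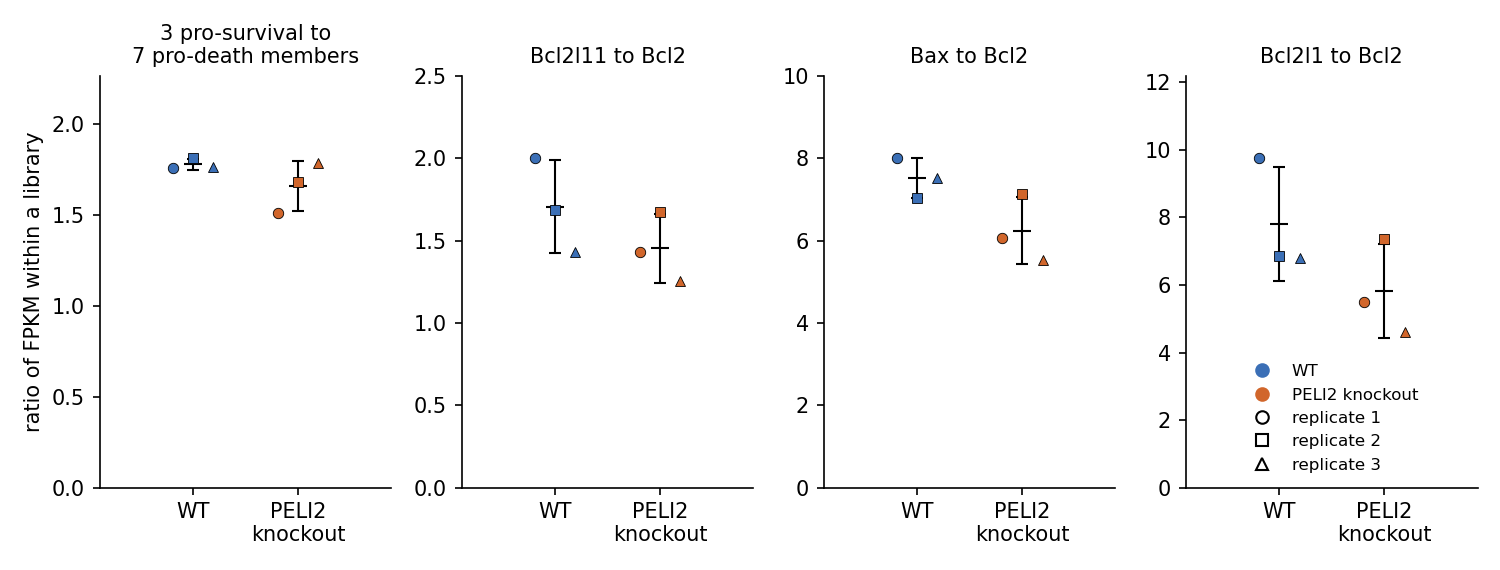
Ratios of FPKM within each library for 4 pairs of members or sums, with 1 point per library (blue WT, orange PELI2 knockout), bars for the mean ± SD of 3 libraries and axes from 0. The groups overlap in each panel, and PELI2 knockout replicate 2 lies among the WT libraries for the 3 ratios to Bcl2.

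Bcl2l1, Bmf, Bcl2 and Pmaip1, picked with their values in view, were set beside the B-lineage markers of the same library. WT replicate 1, with a B-lineage sum of 2384 FPKM, held the highest Bcl2l1 and Bmf and the lowest Bcl2 and Pmaip1 of the 6 libraries. Among the knockout-labelled libraries, whose sums lie within 1628 to 1707 FPKM, Bcl2l1 ran from 24.6 to 30.5 FPKM, Bmf from 20.4 to 26.2 FPKM, Bcl2 from 4.15 to 5.32 FPKM and Pmaip1 from 29.8 to 32.0 FPKM. The part of the marker shift in these values was not tested. Since the marker sum separates the groups, no correlation with that sum over the 6 libraries is given.

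**Figure D4:**
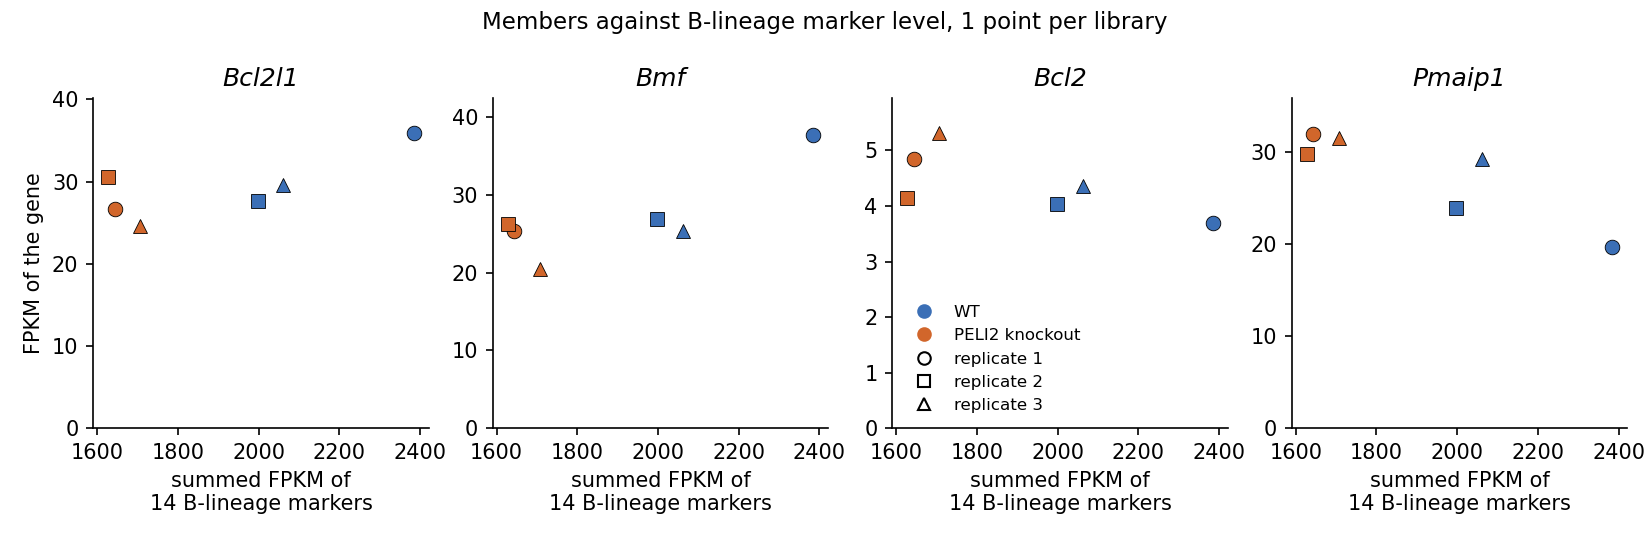
FPKM of Bcl2l1, Bmf, Bcl2 and Pmaip1 against the summed FPKM of 14 B-lineage markers, 1 point per library (blue WT, orange PELI2 knockout, shapes for replicates 1 to 3), with vertical axes from 0. WT replicate 1 lies apart at 2384 FPKM of markers, with the highest Bcl2l1 and Bmf and the lowest Bcl2 and Pmaip1.

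Likeness to other genes was taken as Pearson r of log2(FPKM + 1) over the 6 libraries, among 8114 genes with a mean of 5 FPKM or more, as a description. With so many genes and 6 points that share library and depth, high values arise readily. The 3 genes most like Bcl2 were Ppp1r9b (r = 0.996), Rplp1 (0.994) and Rpl14 (0.991), the last pair being ribosomal protein genes. Those most like Bcl2l1 were E2f2 (0.993), Gm11914 (0.986) and Tmem132e (0.985). Those most like Mcl1 were Fignl1 (0.983), Gm10052 (0.972) and Atp6v0a2 (0.968), and those most like Bcl2l11 were Sdccag3 (0.992), AC126682.1 (0.967) and Zfp106 (0.966).

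Of 15 further genes of the family 14 had a row (not Hrk) and 8 passed the filter, of which 5 were higher in mean and 3 lower. None of the 8 passed the test (limma). At an unadjusted p under 0.05 there was 1 on the lower side and 0 on the higher side, where all tested genes had 8.88% and 9.20%, and their median log2 difference was 0.05. Bok, an effector-like member, stood at 1.66, 1.44 and 1.73 FPKM in WT and at 0.84, 1.15 and 1.2 FPKM in the knockout-labelled libraries, which lie below every WT library (log2 difference -0.34, SE 0.11, limma adjusted p = 0.216). The 5 libraries at 1 FPKM or more that let Bok pass the filter include all 3 of WT, where it is high, and only 2 of the other group. Bcl2a1d, a copy of the pro-survival gene A1 that granulocytes are known to express, stood at 0.523, 1.05 and 0.941 FPKM in WT and at 1.15, 1.43 and 1.35 FPKM in the other group (log2 difference 0.34, SE 0.14, limma adjusted p = 0.278). It passed the filter through those 3 higher libraries and 1 of WT. Bok and Bcl2a1d were thus tested partly because 1 group was high, and their differences carry that limit. A1 has near-identical copies between which reads may be split, so its value is uncertain, and the granulocyte marker sum was higher in the same libraries. The further gene with the highest level was Bnip3l, named after its values were seen, with a mean of 37.0 FPKM over the 6 libraries, above that of every member but Mcl1. Bcl2l12 stood at 9.71 ± 1.2 and 8.38 ± 0.097 FPKM, and Bad, a BH3-only gene held in check by phosphorylation, at 7.11 ± 0.76 and 7.59 ± 0.43 FPKM (mean ± SD, n = 3, WT first).

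Downstream of the membrane, 16 genes of the apoptosome, caspases and their inhibitors were tested, 8 higher and 8 lower in mean, with a median log2 difference of -0.0046. None passed (limma), and an unadjusted p under 0.05 was reached by 1 on the higher and 2 on the lower side, beside 18.1% of all tested genes in either direction. Htra2, a mitochondrial protease that binds inhibitors of apoptosis once released, stood at 13.4, 13.3 and 13.5 FPKM in WT and at 15.4, 16.5 and 15.4 FPKM in the knockout-labelled libraries. The groups were apart, with a log2 difference of 0.22 (SE 0.047, limma adjusted p = 0.142). Casp2, an initiator caspase, stood at 17.7 ± 0.97 and 15.7 ± 1.07 FPKM, Birc2, a ligase that restrains cell death, at 21.9 ± 0.89 and 19.8 ± 1.03 FPKM, and Cycs, cytochrome c itself, at 15.3 ± 0.86 and 16.7 ± 0.56 FPKM. Casp2 and Birc2 also had groups apart, on the lower side. Over the 16 genes groups were apart for 2 on the higher and 3 on the lower side, beside 11.5% and 14.3% of all tested genes.

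The death receptor arm, which reaches the family through Bid, had 9 of 10 genes tested, 6 higher and 3 lower in mean, with a median of 0.05. None passed (limma), and an unadjusted p under 0.05 was reached by 2, both on the higher side, where 18.1% of all tested genes reached it in either direction and 9.20% on the higher side. Tnfrsf1a, the main receptor for tumour necrosis factor, stood at 13.7, 19.4 and 19.5 FPKM in WT and at 23.7, 23.6 and 24.5 FPKM in the knockout-labelled libraries, all above WT (log2 difference 0.45, SE 0.13, limma adjusted p = 0.188). Ripk1, the kinase recruited to that receptor, stood at 5.09, 6.14 and 5.34 FPKM in WT and at 6.63, 6.84 and 6.58 FPKM in the other group (log2 difference 0.24, SE 0.072, limma adjusted p = 0.196). Monocyte and granulocyte marker sums were higher in the same libraries, and their part was not tested. Fasl, which passed the filter with 1 WT library and 2 of the other group, stood at 0.889 ± 0.12 and 1.15 ± 0.29 FPKM and its receptor Fas at 2.17 ± 0.15 and 2.55 ± 0.54 FPKM.

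Of 22 regulators of the members, 12 were higher and 10 lower in mean, with a median of 0.01, and none passed (limma), and 1 on the higher and 4 on the lower side had an unadjusted p under 0.05, beside 9.20% and 8.88% of all tested genes. Foxo1, the FOXO factor of early B cells, stood at 31.7, 29.2 and 25.9 FPKM in WT and at 22.6, 24.1 and 20.2 FPKM in the knockout-labelled libraries (log2 difference -0.36, SE 0.093, limma adjusted p = 0.166). Over the 22 regulators groups were apart for 5 on the lower side, among them Foxo1, Tnfrsf13c, Il7r and Bach2, and for 2 on the higher. Over all tested genes the shares were 14.3% and 11.5%. Tnfrsf13c, the BAFF receptor that sustains survival of maturing B cells, stood at 74.2, 71.7 and 66.1 FPKM in WT and at 58.5, 54.6 and 59.1 FPKM in the other group (log2 difference -0.29, SE 0.061, limma adjusted p = 0.142). Il7r, the interleukin-7 receptor chain, stood at 53.7, 47.9 and 43.6 FPKM in WT and at 40.4, 41.6 and 36.2 FPKM in the other group, and Bach2, a repressor active in pre-B cells, at 84.1, 70 and 63.9 FPKM and at 54.2, 56.4 and 47.5 FPKM. These 4 genes had lower means, as 13 of the 14 B-lineage markers did, Il7r being itself among the 14, and the part of the marker shift in them was not tested.

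The p53 gene and its feedback inhibitor had nearly equal means in both groups. Trp53 had means of 38.1 ± 2.03 and 38.3 ± 0.83 FPKM in WT and knockout-labelled libraries (log2 difference 0.0079, 95% interval -0.12 to 0.14), and Mdm2, a p53 target, at 31.7 ± 1.96 and 31.5 ± 0.96 FPKM (95% interval -0.14 to 0.14, limma). Foxo3 stood at 19.6 ± 1.58 and 19.9 ± 1.74 FPKM (95% interval -0.18 to 0.22). The rule for named genes does not cover these 3, which were picked with their values in view.

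**Figure D5:**
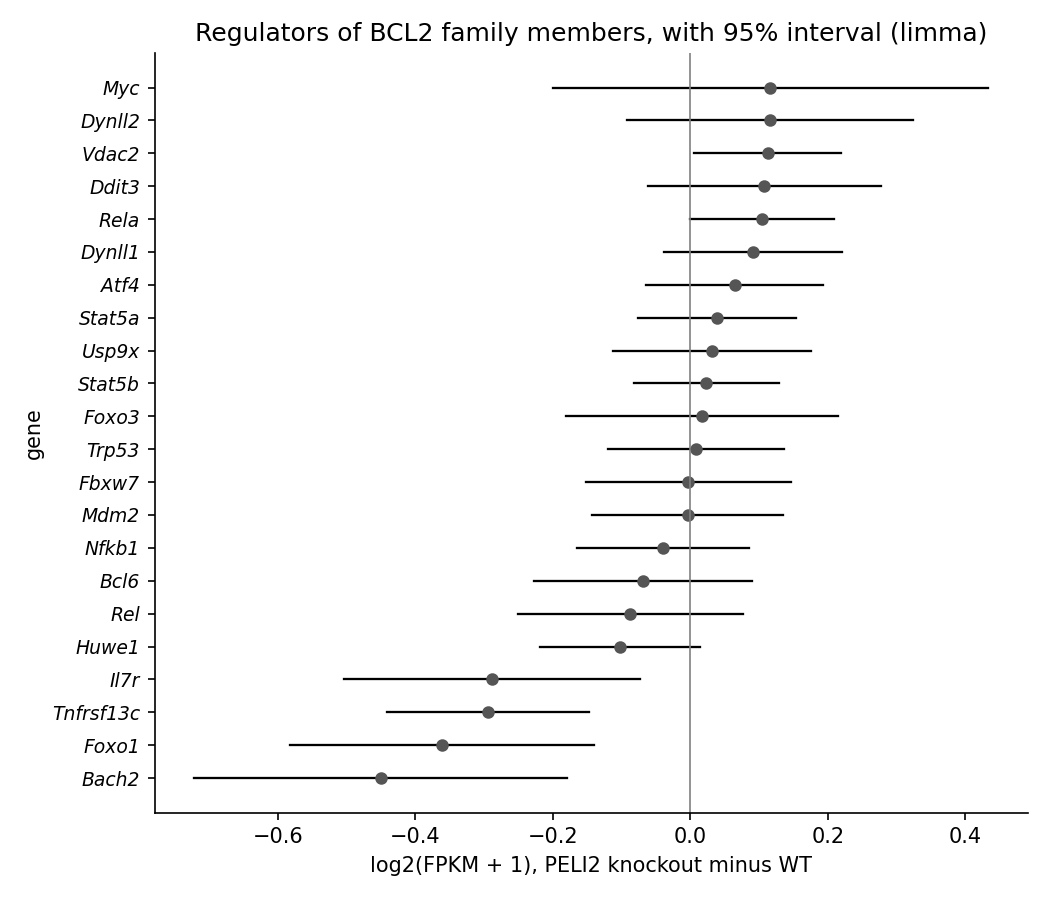
Difference in log2(FPKM + 1) between the groups, PELI2 knockout minus WT, for 22 regulators of the members, with points for the limma estimate and lines for its 95% interval (3 libraries per group). Bach2, Foxo1, Tnfrsf13c and Il7r lie lowest, and Trp53, Mdm2 and Foxo3 lie near 0.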

How the data were processed

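The values used are FPKM per gene and library as deposited by the authors in a single table, with no scaling across libraries stated. Named in the submitters' processing notes, without role or order, are RSEM 1.2.12, DESeq2 1.4.5, HISAT2 2.0.4 and Bowtie2 2.2.5, and as build GRCm38.p6. Per the labels' protocols, libraries were made from oligo(dT)-purified mRNA and read as single ends of 50 bases. Strand use is not given in the sources used here.

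Library totals were searched so that FPKM times length gave whole reads (within 0.03 reads, values under 6 reads) for genes with 1 transcript in GENCODE M21, which held for 99.2% to 99.4% of 3201 to 3542 genes per library. This gave 16600000 to 18000000 reads per library. In 2 simulated tables the error was at most 0.49%.

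A gene was tested when 3 or more libraries had at least 1 FPKM. The test was limma 3.58.1 (R 4.3.3; lmFit, eBayes with trend, two-sided, no block) on log2(FPKM + 1). On simulated tables of 12953 genes, 65.7% of genes changed by 0.5 (log2) and 92.5% of those changed by 1 were called, with independent noise and higher FPKM only. False calls were 5.83% of all calls. In the measured libraries Mpo, Elane, Prtn3 and Ctsg, with log2 differences of 1.33 to 1.65, were not called (limma adjusted p 0.0908 to 0.112). The simulated shares are therefore not the power for the members. Positions are those of the table, on GRCm38, and equal GENCODE M21 for 9 of the 10 members. Promoter windows are from RefSeq on GRCm38.p6.

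The members and gene lists were chosen with earlier results of these data known. Named genes were the members, the 3 Pellino genes, up to 4 genes with the smallest p in each list of the apoptosis pathway, and the 3 genes most like Bcl2, Bcl2l1, Mcl1 and Bcl2l11. For markers of cell types the lists are given as sums. Alternatives were other pseudocounts, filters, scalings, eBayes without trend, library weights, a replicate block and each library left out. Figures were drawn with matplotlib 3.10.9.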

Additional observations from a re-analysis of the deposited data

How the results depend on the processing

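With each alternative run, 0 of the 10 members and 0 genes of the 4 apoptosis lists passed (limma, adjusted p under 0.05). The smallest adjusted p of any member ran from 0.156, without WT replicate 3, to 0.424, with no filter. At an unadjusted p under 0.05 (limma) there were 0 to 3 members per setting, beside 10.8% to 23.6% of all tested genes. Pmaip1 was not among them without WT replicate 1 or 2, or without PELI2 knockout replicate 1 or 3. Bid, Bbc3, Bmf and Bcl2 were among them in some settings. The number of called genes over the whole table, 3, was 1 with a filter of 5 FPKM, which leaves fewer genes and drops Bcl2, and was 6 without a trend, and 1 to 13 with single libraries left out, 13 being without PELI2_knockout replicate 3. The causes were not tested. Bbc3, Bcl2, Bid and Pmaip1 stayed higher and Bcl2l1 and Bmf lower in the settings where they were tested. Rescaled to a common total, Bak1 was at -0.0644 and Bcl2l11 at -0.0585 (log2), where the median of all genes was -0.09. Leaving out single libraries gave -0.0344 to 0.0334 for Bak1, -0.0752 to 0.0276 for Bax, -0.0405 to 0.0631 for Bcl2l11 and -0.0521 to 0.0035 for Mcl1. The difference in the summed ratio, -0.12, ran from -0.18 to -0.0451 over single libraries left out and was -0.0297 with Mcl1 out of the sum. With the replicate number as a block 4 genes were called and 0 members. The unadjusted limma p of Bmf was 0.0440 with the block and 0.117 without it, and that of Bid 0.0903 and 0.0511. Same-numbered libraries had deviations correlated at 0.10, 0.04 and 0.09, not all above 0.1, so the numbers were not taken to pair them, though each library correlated best with its own number. With 3 libraries per group and SEs of 0.055 to 0.16, differences of the size of most members here cannot be told from 0.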

Other observations

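Members were also compared with each other across the 6 libraries, on log2(FPKM + 1), in 45 pairs. At an unadjusted p under 0.05 there were 7 pairs and after Benjamini-Hochberg adjustment over the 45 there were 0 (two-sided exact permutation of libraries, smallest adjusted p = 0.188). No such share was worked out for pairs of other genes. The smallest p was that of Bcl2l1 and Bid, with r = -0.90 (exact permutation p = 0.0111, adjusted 0.188). Their rho was -0.94 (exact permutation p = 0.0167, adjusted 0.375), and r was -0.67 without the 2 libraries farthest from the median of Bcl2l1. Bcl2 and Bmf had r = -0.88 (exact permutation p = 0.0139, adjusted 0.188) and rho = -0.94 (exact permutation p = 0.0167, adjusted 0.375), with r = -0.81 when the 2 libraries farthest from the median of Bcl2 were left out. Bcl2l1 and Bmf had r = 0.92 (exact permutation p = 0.0167, adjusted 0.188) and rho = 0.71 (exact permutation p = 0.136, adjusted 0.613). Their r was 0.02 without the 2 libraries farthest from the median of Bcl2l1 and 0.76 without WT replicate 1. Leaving out the libraries farthest from a gene's median narrows its range, so a lower r there does not show which libraries a relation rests on. Bcl2 and Pmaip1, a guardian and a BH3-only gene, had r = 0.84 (exact permutation p = 0.0361, adjusted 0.259) and rho = 0.89 (exact permutation p = 0.0333, adjusted 0.5), with r = 0.79 without the 2 libraries farthest from the median of Bcl2. Pmaip1 and Bmf had r = -0.88 (exact permutation p = 0.0139, adjusted 0.188), or -0.49 without the 2 libraries farthest from the median of Pmaip1. For Bcl2 and Bcl2l1 r was -0.88 (exact permutation p = 0.0236, adjusted 0.2125), or -0.53 with the 2 farthest for Bcl2 left out. For Bmf and Bid it was -0.79 (exact permutation p = 0.0403, adjusted 0.259), or 0.25 with the 2 farthest for Bmf left out. The permutation treats the 6 libraries as exchangeable, though they form 2 groups. These values therefore do not separate a shift between the groups from variation shared within them. Within a group there are 3 libraries, too few for a value of its own.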
